A study of Mus musculus with 9 samples.

Results

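De novo lipogenesis is the building of fatty acids from smaller carbon units. 10 genes of this pathway were followed, listed by name as its enzymes and regulators, under a rule that uses no measured value although earlier results of these data were known: the enzymes *Acly*, *Acaca*, *Acacb*, *Fasn*, *Elovl6*, *Scd1* and *Scd2*, and the regulators *Srebf1*, *Mlxipl* and *Thrsp*. All 10 were found by exact symbol among the 24356 gene symbols listed for each library. All 10 were also above 0 in every library, which placed them among the 14675 genes tested.

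In the cytosol, citrate is split by ATP citrate lyase (*Acly*) into acetyl-CoA, the acetyl-CoA carboxylases (*Acaca* and *Acacb*) turn acetyl-CoA into malonyl-CoA, and fatty acid synthase (*Fasn*) joins these units into palmitate. Palmitate is then lengthened by *Elovl6* and given a double bond by the stearoyl-CoA desaturases (*Scd1* and *Scd2*). *Srebf1* encodes SREBP-1, which responds to insulin, *Mlxipl* encodes ChREBP, which responds to glucose metabolites, and both switch on the enzyme genes, while *Thrsp* (Spot 14) is a small lipogenic protein induced by thyroid hormone and carbohydrate. Brown fat is known for making fatty acids while also burning them for heat.

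Brown adipose tissue RNA was sequenced from 9 mice, namely 3 WT females, 2 WT males, 2 KO females and 2 KO males, untreated and fed a standard chow. KO mice lacked growth hormone releasing hormone (GHRH) in the whole body, and WT mice were littermates of the same mixed C57BL6 and 129SV background. The age of the mice is not given in the sources used here. Values are FPKM, the authors' measure of fragments per transcript length, scaled for the size of the library.

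The level of the targeted gene ran opposite to that of a knockout with no transcript left. *Ghrh* (chr2:157329497-157347506) was detected only in the libraries labelled KO. The KO females held 0.846 and 0.233 FPKM and the KO males 0.799 and 0.470 FPKM, whereas each of the 5 WT libraries listed it at 0. What part of the gene the deletion leaves to be read is not given in the sources used here, so these values do not check the labels in either direction. KO and WT therefore mean the libraries labelled KO and WT throughout, and every direction takes those labels as given.

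As a check of the tissue, the brown fat marker *Ucp1* was at 1357 FPKM or more in every library, and the adipocyte marker *Adipoq* averaged 573 ± 93.5 FPKM in KO and 860.0 ± 140.2 FPKM in WT (SD, n = 4 and 5). *Ddx3y* and *Xist* matched the labelled sex in all 9 libraries. KO male 1 stood apart, with Spearman correlations of 0.924 to 0.934 with the other libraries, a summed level of 8 lymphocyte markers of 213 FPKM against 1.98 to 4.79 FPKM elsewhere, and one of 6 macrophage markers of 403 FPKM against 24.6 to 98.6 FPKM. The 12 skeletal muscle markers summed to 2976 to 13348 FPKM in KO and 509 to 2564 FPKM in WT, without overlap. The 6 adipocyte markers summed to 11314 to 16178 FPKM in KO and 15302 to 19044 FPKM in WT. The 10 white adipocyte markers were highest in WT female 1 (429.6 FPKM) and WT male 2 (382 FPKM), against 56.5 to 153 FPKM elsewhere, with *Hoxc10* at 0 in all. The 8 mammary epithelium markers reached 53.5 FPKM in WT female 1 and 13.1 FPKM in WT female 2 against at most 0.877 FPKM elsewhere, with *Csn2* and *Wap* at 0 in all. The part of these cell types in the results below was not tested. In bulk tissue, fewer cells of a type and less RNA per cell cannot be told apart.

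The lipogenesis genes were among the most highly expressed of the tissue, each at or above the 94.2 percentile of all listed genes by mean FPKM. *Scd1* had the highest mean over the 9 libraries at 2492 FPKM, followed by *Thrsp* at 1859, *Fasn* at 781, *Acly* at 312 and *Acaca* at 146 FPKM. This order of the leading 5 genes held within each of the 9 libraries, although the ranges of neighbours over the libraries overlapped. Below them came *Acacb* at 89.3, *Elovl6* at 80.1, *Srebf1* at 50.7, *Scd2* at 40.7 and *Mlxipl* at 38.2 FPKM, whose order differed between libraries. Together the 10 genes made up 0.918% of all FPKM in WT female 3, the lowest, and 2.14% in KO male 2, the highest, with WT male 1 next at 2.09%.

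**Figure D1:**
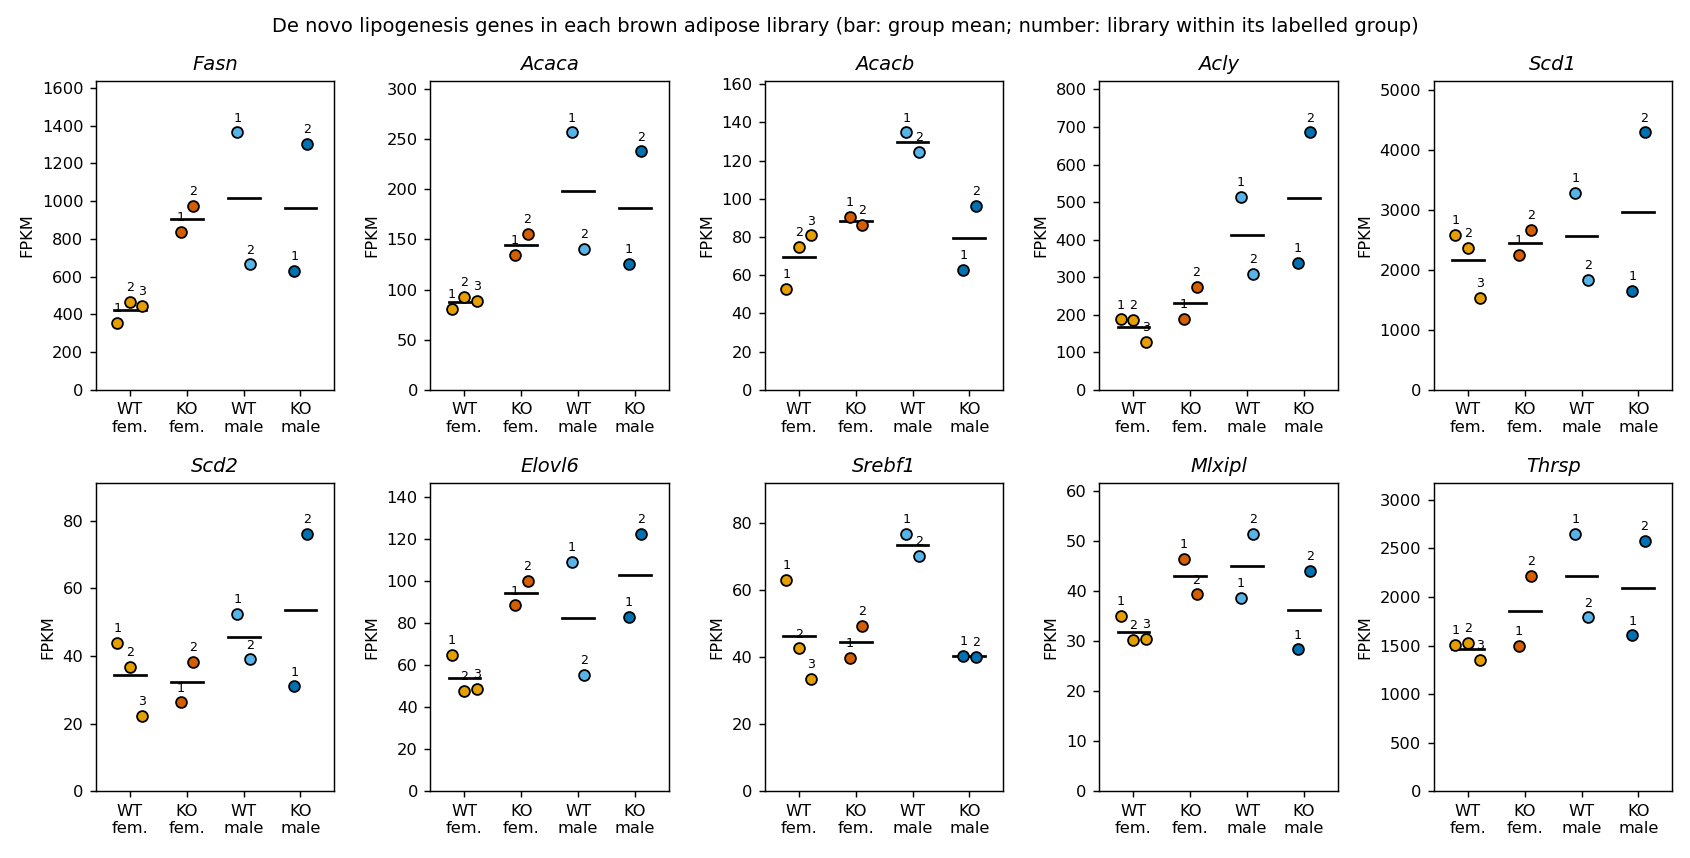
FPKM of each of the 10 lipogenesis genes (linear axis from 0 in each panel) in the 9 libraries, by labelled genotype and sex, where each point is 1 library and each bar a group mean. WT females sit low for Fasn, at 353 to 465 FPKM, while both KO and WT males spread widely, at 629 and 1303 FPKM in KO and 1364 and 664 FPKM in WT.

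The first question was whether KO differed from WT with both sexes averaged. *Elovl6* had the largest estimate above 0 and *Srebf1* the largest below 0, and neither passed the test. None of the 10 genes was called at an adjusted p under 0.05 by limma, where 3.6% of all genes were. At an unadjusted p under 0.05, limma gave 2 of the 10, *Elovl6* and *Srebf1*, against 20.2% of all genes. The plain linear model of the methods gave none of the 10 at an unadjusted p under 0.01, against 7.54% of all genes. It also gave none of the 10 at an adjusted p under 0.05. 8 of the 10 estimates lay above 0 against 37.5% of all genes, and the median difference was 0.14 on the log2 scale against -0.07 over all genes tested. No gene of the 10 separated KO from WT without overlap, where 3.03% of all genes did so higher in KO and 6.04% lower.

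**Figure D2:**
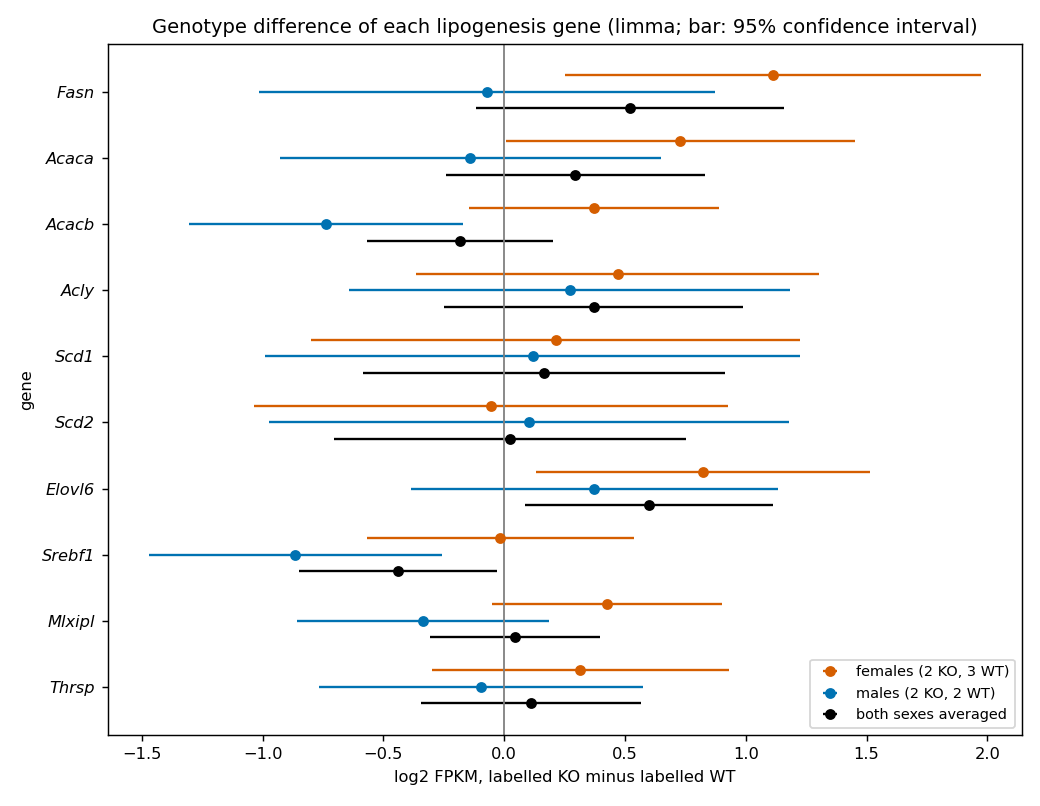
Difference in log2 FPKM between libraries labelled KO and WT for each lipogenesis gene, with its 95% confidence interval from limma, for the sexes averaged, females and males. The interval for Fasn in females runs from 0.25 to 1.97, while in males it spans 0.

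Among the enzymes, *Acly* supplies the acetyl-CoA on which the pathway draws. Its level was 187, 185 and 127 FPKM in WT females, 188 and 274 in KO females, 338 and 685 in KO males and 514 and 309.6 in WT males. The males lay above the females in both genotypes, and KO and WT overlapped. The difference of KO from WT was 0.37 on the log2 scale (SE 0.27, limma adjusted p 0.510).

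The carboxylases differ in place: *Acaca* encodes the cytosolic enzyme that feeds synthesis, and *Acacb* the enzyme at the mitochondrial outer membrane whose malonyl-CoA restrains fatty acid oxidation. *Acaca* was at 80.8, 92.6 and 88.4 FPKM in WT females, 135 and 155 in KO females, 125 and 238 in KO males and 257 and 141 in WT males. *Acacb* was at 52.9, 74.9 and 80.8 FPKM in WT females, 90.5 and 86.3 in KO females, 62.6 and 96.4 in KO males and 135 and 124 in WT males. For both genes the KO females lay above the WT females, whereas in males *Acacb* lay below the WT males in both KO libraries and *Acaca* overlapped. With the sexes averaged, *Acaca* differed by 0.29 (SE 0.23, limma adjusted p 0.552) and *Acacb* by -0.18 (SE 0.16, limma adjusted p 0.619) on the log2 scale. Of all 50-base stretches of the *Acaca* transcripts, 30.4% also occur in other annotated genes, so its value depends on how shared fragments were assigned, which is not given in the sources used here.

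*Fasn* carries out every step from malonyl-CoA to palmitate. It was at 353, 465 and 443 FPKM in WT females, 835 and 974 in KO females, 629 and 1303 in KO males and 1364 and 664 in WT males. WT females were the lowest 3 libraries, and the other 6 did not separate by genotype. The difference with the sexes averaged was 0.52 on the log2 scale (SE 0.27, 95% interval -0.12 to 1.16, limma adjusted p 0.348), on means of 935 ± 284 FPKM in KO and 658 ± 411 FPKM in WT (SD, n = 4 and 5).

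*Elovl6*, which takes palmitate to stearate, was at 65.1, 47.7 and 48.6 FPKM in WT females, 88.5 and 100.3 in KO females, 83.1 and 122 in KO males and 109 and 55.6 in WT males. Only WT male 1 overlapped the KO libraries. The means were 98.6 ± 17.4 FPKM in KO and 65.2 ± 25.6 FPKM in WT (SD, n = 4 and 5), and the log2 difference was 0.60 (SE 0.22, 95% interval 0.08 to 1.11, limma adjusted p 0.180). Without WT male 1 it was 0.84 and passed the test (SE 0.17, limma adjusted p 0.0432), as did 5.56% of all genes, with the lone WT male then assumed to vary like the other groups, whereas the least favourable alternative brought its limma adjusted p to 0.404.

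The desaturases make the monounsaturated fatty acids stored in triglyceride. *Scd1* ranged from 1532 to 3283 FPKM in WT and from 1648 to 4287 FPKM in KO, with KO male 2 the highest library and WT female 3 the lowest. *Scd2* ranged from 22.2 to 52.4 FPKM in WT and from 26.3 to 76.0 FPKM in KO, with the same libraries at the ends. Their log2 differences were 0.17 (SE 0.32, 95% interval -0.58 to 0.91, limma adjusted p 0.851) and 0.02 (SE 0.31, 95% interval -0.70 to 0.75, limma adjusted p 0.985), intervals wide enough to hold a change of either sign. *Scd1* outnumbered *Scd2* by 46.8 to 85.2 times per length over the libraries, and 4.56% and 3.97% of their 50-base stretches also occur in other genes, mostly in each other and in *Scd3* and *Scd4*.

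Among the regulators, *Srebf1* was at 63.2, 42.7 and 33.6 FPKM in WT females, 39.9 and 49.5 in KO females, 40.5 and 40.2 in KO males and 76.8 and 70.3 in WT males. Both KO males lay below both WT males, and the females overlapped. With the sexes averaged the log2 difference was -0.44 (SE 0.18, 95% interval -0.85 to -0.03, limma adjusted p 0.215). The file value joins the transcripts of SREBP-1a and SREBP-1c, which arise from different start sites of this gene.

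*Mlxipl* was at 35.0, 30.3 and 30.5 FPKM in WT females, 46.5 and 39.4 in KO females, 28.4 and 44.0 in KO males and 38.7 and 51.4 in WT males. KO females and WT males lay above WT females, and all other pairs of groups overlapped. *Thrsp* ranged from 1354 to 2647 FPKM in WT and from 1494 to 2582 FPKM in KO, with WT male 1 and KO male 2 at the top. Their log2 differences were 0.05 (SE 0.15, limma adjusted p 0.920) and 0.11 (SE 0.20, limma adjusted p 0.835).

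An exact permutation test of mean log2 FPKM over the 9 libraries (two-sided, smallest possible p 0.00794) gave 0.0556 for *Elovl6*, 0.183 for *Srebf1* and 0.190 for *Fasn*. For the other 7 genes the exact permutation p ran from 0.365 to 0.849. These splits ignored sex. With splits kept within each sex (smallest possible p 0.0167), the exact permutation p was 0.05 for *Elovl6*. It was then 0.183 for *Fasn*, *Srebf1* and *Acly*, 0.233 for *Acaca* and 0.5 to 0.8 for the remaining genes.

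Next, the genotypes were compared within each sex. In females, *Fasn*, *Acaca*, *Acacb*, *Acly*, *Elovl6* and *Mlxipl* were higher in both KO libraries than in all 3 WT libraries, 6 of the 10 against 13.8% of all genes, and none was lower without overlap against 26.6%. For *Acly* the gap was small, 188 FPKM in KO female 1 against 187 FPKM in WT female 1. The largest difference was that of *Fasn*, at a mean of 905 FPKM in KO and 420.2 FPKM in WT females, or 1.11 on the log2 scale (SE 0.37, 95% interval 0.25 to 1.97, 2.16-fold, limma adjusted p 0.287). *Elovl6* followed with 0.82 (SE 0.30, limma adjusted p 0.322) and *Acaca* with 0.73 (SE 0.31, limma adjusted p 0.390). None of the 10 was called, where limma called 0.0204% of all genes, and 3 of the 10 had an unadjusted limma p under 0.05 against 12.7%. With 3 and 2 libraries the exact permutation p cannot go below 0.1. 8 of the 10 estimates were above 0, against 39.8% of all genes. The list median was 0.40 against -0.07 over all genes, and leaving out single libraries kept *Fasn* between 0.99 and 1.22. The mammary epithelium markers summed to 53.5, 13.1 and 0.280 FPKM in WT females 1, 2 and 3. The part of mammary transcripts in this comparison was not tested.

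In males, *Acacb* and *Srebf1* were lower in both KO libraries than in both WT libraries, 2 of the 10 against 28.7% of all genes, and none was higher without overlap against 10.8%. The log2 differences were -0.74 for *Acacb* (SE 0.24, limma adjusted p 0.184) and -0.86 for *Srebf1* (SE 0.26, limma adjusted p 0.151). *Fasn* differed by -0.07 (SE 0.41) and the list median was -0.08, equal to that of all genes at 2 decimals. None of the 10 was called, where limma called 0.0136% of all genes, and 2 had an unadjusted limma p under 0.05, against 16.6%. The exact permutation p cannot go below 0.333 with 2 against 2. The 2 KO males differed from each other, with KO male 1 below KO male 2 in every gene of the list but *Srebf1*, at 40.5 and 40.2 FPKM. Without KO male 2, which leaves the library with lymphocyte transcripts as the only KO male, *Acacb* in males passed the test at -1.05 (SE 0.23, limma adjusted p 0.0396), as did 8.81% of all genes, and without KO male 1 it was -0.43 (limma adjusted p 0.371). Such fits assume that the lone KO male varies like the other groups. The sign for *Fasn* turned on single libraries, from -0.60 without KO male 2 and -0.59 without WT male 2 to 0.45 without KO male 1 or WT male 1. *Acaca* likewise ran from -0.60 without KO male 2 to 0.32 without KO male 1.

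Whether the genotype difference itself depended on sex was tested by the interaction, which is the KO to WT difference of the males less that of the females. The estimate was below 0 for 9 of the 10 genes, all but *Scd2*, which leaves 1 above 0 against 48.7% of all genes, and the median was -0.61 against -0.01 over all genes. Such counts, here and in the other comparisons, are not of independent genes, as several varied together (*Fasn* and *Acaca* at a Pearson r of 0.98). The comparison in females, the interaction and the sex comparison among WT also share the same 3 WT females. No gene of the 10 was called, as no gene was in the whole table (0%), and 3 of the 10 had an unadjusted limma p under 0.05 against 7.01%: *Acacb* at -1.11 (SE 0.33, limma adjusted p 0.644), *Srebf1* at -0.85 (SE 0.35, limma adjusted p 0.697) and *Mlxipl* at -0.76 (SE 0.30, limma adjusted p 0.693). *Fasn* had the largest estimate, -1.18, with the largest SE of these 4, 0.55 (limma adjusted p 0.709). *Acacb* was the only gene of the 10 that was higher in every KO female and lower in every KO male, a pattern held by 2.58% of all genes (3.35% with opposite directions either way). Its interaction passed the test without KO male 2 (-1.42, limma adjusted p 0.0421), as did that of 4.91% of all genes under the same assumption for the lone KO male, and was -0.80 without KO male 1 (limma adjusted p 0.694).

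**Figure D3:**
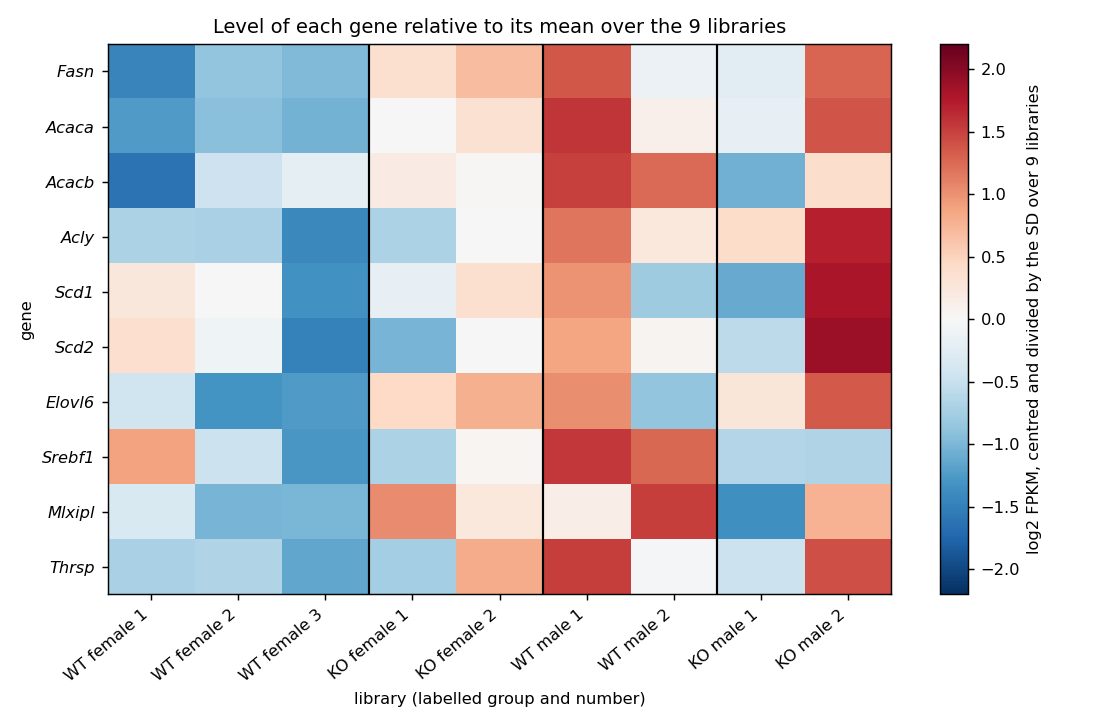
Level of each lipogenesis gene (rows) in each library (columns), as log2 FPKM centred on the gene's mean and divided by its SD over the 9 libraries. WT females are mostly below the mean, WT male 1 and KO male 2 mostly above it, with the mean over the 10 genes running from -1.11 in WT female 3 to 1.17 in WT male 1.

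Sex was the other factor of the design. All 10 estimates of male minus female with the genotypes averaged were above 0, against 51.5% of all genes, with a median of 0.37 against 0.01. *Acly* had the largest, 1.18 on the log2 scale (SE 0.27, 2.27-fold, limma adjusted p 0.242), followed by *Acaca* with 0.69 (SE 0.23, limma adjusted p 0.372) and *Fasn* with 0.60 (SE 0.27, limma adjusted p 0.511). None of the 10 was called, where limma called 0.0136% of all genes, and 2 of the 10, *Acly* and *Acaca*, had an unadjusted limma p under 0.05 against 10.4%. *Acly* was above every female of its genotype in every male of both genotypes.

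Taken by genotype, a split added after values were seen, 7 of the 10 genes were higher in both WT males than in all 3 WT females (*Fasn*, *Acaca*, *Acacb*, *Acly*, *Srebf1*, *Mlxipl* and *Thrsp*), against 13.4% of all genes. Among KO libraries only *Acly* was, 1 of 10 against 14.9%, and none was lower without overlap against 25.1%. The estimates above 0 numbered 10 of 10 among WT (51% of all genes) and 7 of 10 among KO (49.3%). The difference of *Fasn* between the sexes was 1.19 among WT (SE 0.37, limma adjusted p 0.511) and 0.01 among KO (SE 0.41, limma adjusted p 0.996). That of *Acly* was 1.28 among WT (SE 0.36, limma adjusted p 0.445) and 1.08 among KO (SE 0.39, limma adjusted p 0.421). None of the 10 was called among WT or among KO, where limma called 0.00681% of all genes in each. At an unadjusted limma p under 0.05 there were 6 of the 10 among WT against 7.22% of all genes, and 1 of the 10 among KO against 10.6%. The difference between these differences is the interaction given above.

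The 10 genes did not vary as 1 block over the libraries. As a description over 9 libraries that share sampling of the same tissue, and over 45 pairs of genes, *Fasn* and *Acaca* were the most alike (Pearson r of log2 FPKM 0.98), followed by *Acaca* with *Thrsp* (0.92), and *Acaca* with *Acly* at 0.90. *Scd1* and *Scd2*, which are neighbours on chromosome 19, reached 0.88. *Srebf1* stood apart from the enzymes, at 0.13 with *Elovl6*, 0.18 with *Fasn* and at most 0.44 with any gene of the list. *Mlxipl* was nearest to *Acacb* (0.65) and at 0.35 to 0.53 with the other genes.

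**Figure D4:**
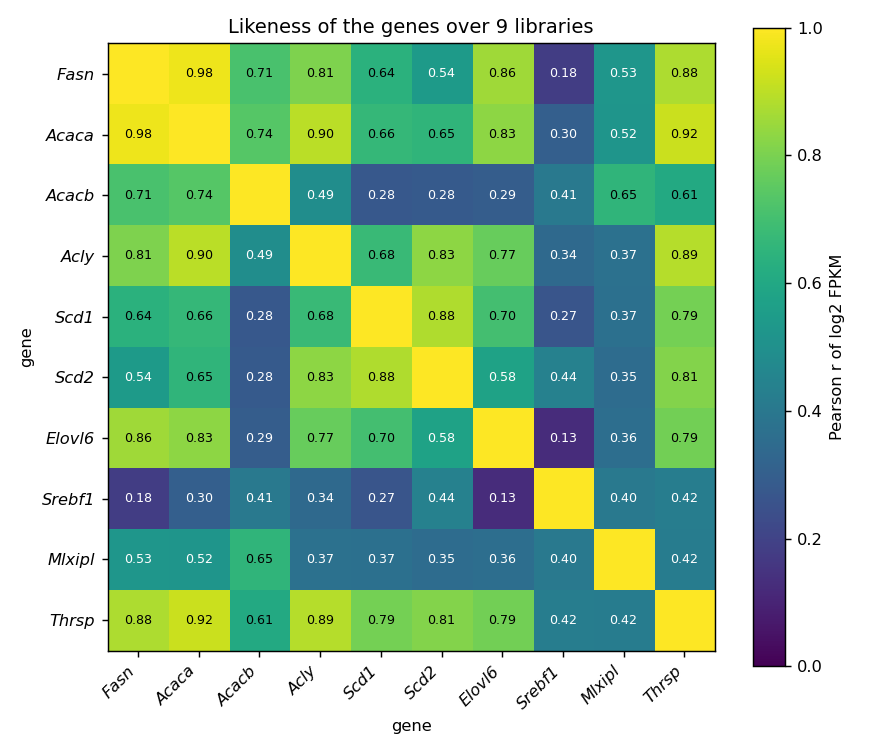
Pearson correlation of log2 FPKM over the 9 libraries for each pair of lipogenesis genes (colour scale from 0 to 1). Fasn, Acaca, Acly and Thrsp correlate at 0.81 to 0.98 with each other, and Srebf1 at 0.13 to 0.44 with all others.

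The stretch just before the start site is shown for *Fasn* and *Acly*, whose levels varied together over the libraries (Pearson r 0.81). It is also shown for *Mlxipl*, whose r was 0.53 with *Fasn* and 0.37 with *Acly*. Each line gives the 200 bases before the RefSeq start site on build GRCm38.p6, 5′ to 3′ on the gene's strand, and capitals mark the letters of a searched motif:
Fasn: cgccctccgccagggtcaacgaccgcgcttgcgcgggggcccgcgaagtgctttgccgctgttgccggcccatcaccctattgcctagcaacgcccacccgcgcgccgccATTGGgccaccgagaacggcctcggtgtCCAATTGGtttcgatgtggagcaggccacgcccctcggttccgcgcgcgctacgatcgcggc
Acly: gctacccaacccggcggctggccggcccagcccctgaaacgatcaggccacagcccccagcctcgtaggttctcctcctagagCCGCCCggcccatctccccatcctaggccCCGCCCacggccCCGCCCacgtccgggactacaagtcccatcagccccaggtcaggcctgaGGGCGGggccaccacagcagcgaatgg
Mlxipl: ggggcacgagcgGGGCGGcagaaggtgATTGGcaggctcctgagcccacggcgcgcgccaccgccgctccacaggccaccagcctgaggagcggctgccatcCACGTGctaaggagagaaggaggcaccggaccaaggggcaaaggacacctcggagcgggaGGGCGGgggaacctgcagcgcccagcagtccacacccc
The *Fasn* stretch is chr11:120824548-120824747 and the *Acly* stretch chr11:100528001-100528200, both on the minus strand, and the *Mlxipl* stretch is chr5:135089690-135089889 on the plus strand. Each of the 3 ends at the base before the annotated gene.

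6 motifs were searched on both strands in the 300 bases around each start site (250 before and 50 after), and their letters may overlap. The CCAAT box (CCAAT, in 37.4% of all 32851 promoters of the table) occurred 3 times in *Fasn*, from -90 to -86, -62 to -58 and -59 to -55 with the last pair overlapping, counted from the start site. It was found in 6 of the 8 genes with an entry, the others being *Thrsp*, *Acly* (from 38 to 42, after the start site), *Acacb*, *Mlxipl* and *Srebf1*. *Mlxipl* and *Srebf1* have several entries and were counted if any of them matched, whereas the share of all promoters is per entry. The GC box (GGGCGG, 35.7%) occurred 4 times in *Acly* and also in *Mlxipl* and *Srebf1*, and *Acaca* and *Elovl6* held none of the 6 motifs. *Mlxipl* held an E-box (CACGTG, 7.15%) from -98 to -93 at the start site shown, and at its other start site a sterol regulatory element (TCACNCCAC, 1.24%) from -136 to -128. The TATA box (TATAAA, 13.6%) occurred in *Acacb* from -34 to -29, and the thyroid hormone response element of the DR4 type (0.0152%) in none of the 8 genes. *Scd1* and *Scd2* had no entry and were not searched, and the *Acaca* entry begins at an internal start inside the gene (chr11:84129672-84401651) and is not shown. The start sites of *Acacb*, *Elovl6* and *Thrsp* and the other site of *Mlxipl* also lie inside the annotated genes, as do some of *Srebf1*. These matches are of letters in the window only.

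Ratios within a library do not depend on its scaling. *Fasn* per *Srebf1*, an enzyme against the factor known to switch it on, was 15.5 to 32.4 in KO and 5.58 to 17.8 in WT, with WT male 1 at 17.8 above KO male 1 at 15.5. *Acaca* per *Acacb* was 1.49 to 2.47 in KO and 1.09 to 1.91 in WT, so that the ranges overlapped. *Fasn* per *Acaca* stayed within 4.36 to 6.28 over the 9 libraries.

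Of 14532 other tested genes outside all lists, those most like the mean of the 10 scaled genes over the 9 libraries were *Klhdc10* (Pearson r 0.97), *Derl1* (0.96), *Echdc1* (0.96), *Pim1* (0.95) and *Pgp* (0.94). *Pim1*, which encodes a serine/threonine kinase, was at 23.7 to 35.0 FPKM in females of both genotypes and at 31.3, 64.4, 66.6 and 47.5 FPKM in KO male 1, KO male 2, WT male 1 and WT male 2. These genes were picked for this likeness, which is no test.

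Finally, 6 lists of other genes of lipid synthesis were examined, 70 of whose 72 genes were tested. limma called 3, all lower in KO: *Elovl5*, *Gpat3* and *Abca1*. That is 3 of 70 beside 2.17% of all genes called lower and 1.43% called higher. Of the 70, *G6pdx* was higher in KO without overlap, and *Elovl5*, *Gpat3*, *Abca1* and *Lpcat3* were lower. Over all genes tested, 3.03% were higher without overlap and 6.04% lower. With each library centred on its adipocyte markers, a scaling added after values were seen, the calls were 7 higher and 1 lower of 70, where 5.66% of all genes were called and the median of all genes was 0.24 in place of -0.07. The median of the 10 lipogenesis genes was then 0.45, and none of the 10 was called.

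**Figure D5:**
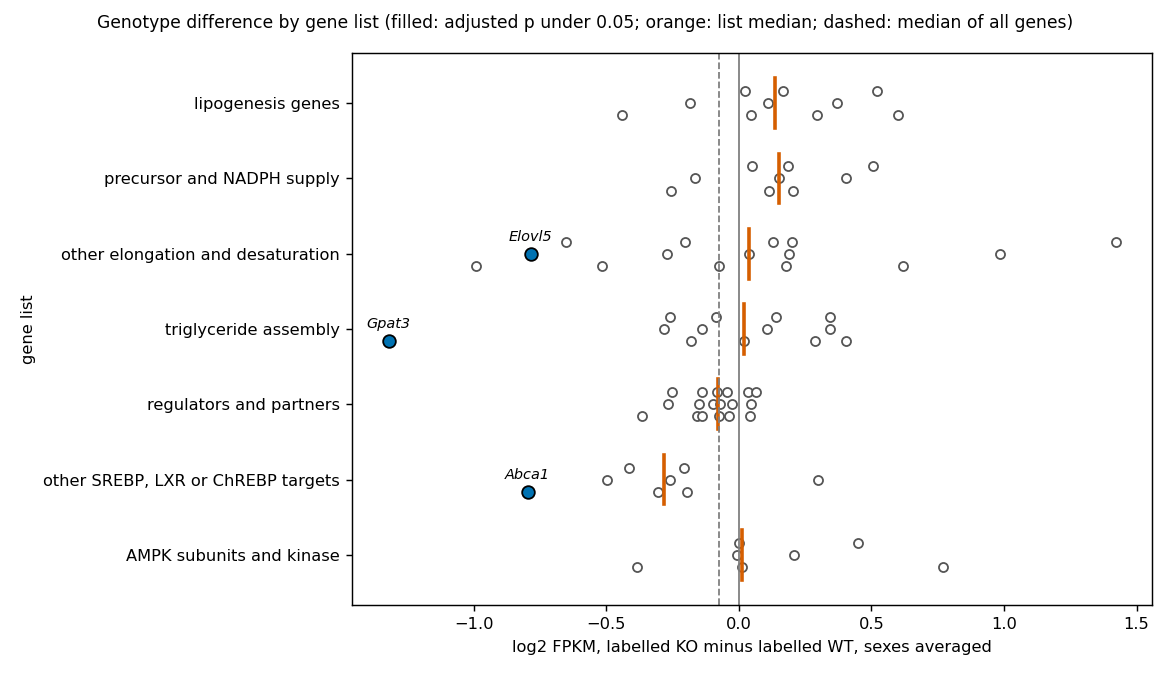
Difference in log2 FPKM between libraries labelled KO and WT, sexes averaged, for the 10 lipogenesis genes and the 70 genes of 6 wider lists (rows), where each point is 1 gene. The 3 filled points, Elovl5, Gpat3 and Abca1, are the genes called, and all lie below 0.

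*Elovl5*, which lengthens polyunsaturated fatty acids, was at 36.9, 46.4 and 33.6 FPKM in WT females, 17.1 and 16.3 in KO females, 23.3 and 19.9 in KO males and 27.1 and 28.3 in WT males. Every KO library was below every WT library. It fell by 0.79 on the log2 scale (SE 0.11, limma adjusted p 0.0280), on means of 19.2 ± 3.14 FPKM in KO and 34.5 ± 7.78 FPKM in WT (SD, n = 4 and 5). *Elovl3*, an elongase typical of brown fat, was at 16.3 to 37.0 FPKM in KO and 4.05 to 31.0 FPKM in WT (log2 difference 1.42, SE 0.48, limma adjusted p 0.147). Over the libraries left out its difference ran from 0.91 to 1.93, the highest being without WT male 1. 1 of the 15 other elongation and desaturation genes was called.

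In triglyceride assembly 1 of 13 was called. *Gpat3*, which adds the first fatty acid to glycerol-3-phosphate and is named *Agpat9* in the tables, was at 2.59 to 4.58 FPKM in KO and 5.55 to 11.2 FPKM in WT, without overlap. It fell by 1.32 on the log2 scale (SE 0.22, limma adjusted p 0.0343). *Lpin1*, the next named by rule, differed by -0.26 (SE 0.07, limma adjusted p 0.0940).

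Among 8 tested targets of SREBP, LXR or ChREBP outside the pathway, 1 was called. *Abca1*, a cholesterol exporter switched on by LXR, was at 3.69 to 4.73 FPKM in KO and 5.51 to 10.95 FPKM in WT, without overlap, and fell by 0.80 on the log2 scale (SE 0.12, limma adjusted p 0.0318). 7 of the 8 estimates were below 0, as were 9173 of all 14675 genes. The list median was -0.28 against -0.07 over all genes. *Lpcat3*, another LXR target, also showed no overlap, at 15.0 to 20.5 FPKM in KO and 20.6 to 22.2 FPKM in WT, but did not pass the test (-0.21, SE 0.09, limma adjusted p 0.268). Without KO male 2 *Lpcat3* passed the test at -0.31 (limma adjusted p 0.0422), as did 7.53% of all genes, with the lone KO male assumed to vary like the other groups.

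The 3 calls were not firm. *Elovl5*, *Gpat3* and *Abca1* kept their sign in every alternative, but leaving out any of WT female 1, KO female 1, KO female 2 or WT male 2 ended all 3 calls, and leaving out WT female 2 or WT female 3 ended those of *Gpat3* and *Abca1*. The limma adjusted p of the 3 then lay between 0.0510 and 0.134. The background moved too, from 8 to 1105 genes called over the libraries left out.

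The remaining lists had no call. Of 9 genes supplying acetyl-CoA and NADPH, the reducing agent of fatty acid synthesis, 7 estimates were above 0, against 37.5% of all genes. *G6pdx*, the entry enzyme of the pentose phosphate pathway, was at 59.7 to 80.8 FPKM in KO and 41.7 to 57.9 FPKM in WT, without overlap, but did not pass the test (0.40, SE 0.12, limma adjusted p 0.112), and *Pgls* of the same pathway differed by -0.26 (SE 0.07, limma adjusted p 0.0739). Of 18 regulators and partners, 14 were below 0, as were 9173 of all 14675 genes. The median of this list was -0.08, near that of all genes. *Thra*, a thyroid hormone receptor, differed by -0.37 (SE 0.14, limma adjusted p 0.189) and *Akt2*, a kinase of insulin signalling, by -0.14 (SE 0.06, limma adjusted p 0.275).

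Of 7 genes for AMPK, which phosphorylates and restrains the carboxylases, and its kinase, 4 were above 0, against 37.5% of all genes. *Prkaa2*, a catalytic subunit, was at 2.95 to 4.85 FPKM in KO and 2.26 to 3.61 FPKM in WT (0.45, SE 0.10, limma adjusted p 0.0601). *Prkab2* differed by 0.77 (SE 0.27, limma adjusted p 0.157), with KO male 1 at 4.65 FPKM and every other library at 2.28 FPKM or less, and without KO male 2 it passed the test at 1.03 in the same fit (limma adjusted p 0.0447). Skeletal muscle is rich in both subunits, and the muscle markers given above were higher in every KO library than in every WT library. The part of muscle transcripts in these values was not tested.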

How the data were processed

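The authors deposited 1 table of FPKM per library, which they made, per the labels and their methods, from poly A+ libraries read as paired ends, with bcl2fastq 1.8.4, TopHat2 2.0.11, build mm10 (GRCm38) and Bowtie. The labels name both HiSeq2000 and HiSeq2500. The annotation, the use of strand and the handling of fragments that map to several genes are not given in the sources used here.

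Genes with an FPKM above 0 in all 9 libraries (14675 of 24356) were tested on the log2 scale with no pseudocount or further scaling. limma 3.58.1 in R 4.3.3 fitted a mean per group with a mean-variance trend, and p-values were adjusted by Benjamini-Hochberg over all genes tested, with a call at an adjusted p under 0.05. The plain linear model of the methods, other scalings, pseudocounts and filters and the omission of each library were alternatives. Exact permutation tests were two-sided. Libraries are numbered within their group, and nothing in the labels says that more than 1 library came from an animal. Numbers of fragments are not in the values used, so the depth of each library is known only relative to WT female 1, from the steps between low values (0.916 to 1.14), and FPKM summed to 380558 to 443569 per library. No counting interval was computed.

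The 10 genes were listed by pathway role, with no measured value in the rule, but they and all other lists were chosen with earlier results of these data known. The named genes of the wider lists were those called and, where fewer than 2 were called, the 2 with the lowest p. The male minus female comparisons within genotype and the centring on adipocyte markers were added after values had been seen. Gene positions are from GENCODE on GRCm38 and promoter sequences from RefSeq on GRCm38.p6. Scripts were tested on simulated data. Calculations also used scipy 1.17.1, numpy 2.4.6 and pandas 2.3.3 under Python 3.11.15, and figures were drawn in matplotlib 3.10.9.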

Additional observations from a re-analysis of the deposited data

Results flagged for a closer look

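The genotype difference of *Acacb* ran opposite ways in the sexes: every KO female was above every WT female and every KO male below every WT male. The interaction was -1.11 on the log2 scale (SE 0.33, limma unadjusted p 0.0107, adjusted p 0.644), so the difference between the sexes did not pass the test over all genes.

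Among the 4 KO libraries, *Srebf1* in KO female 2 stood apart at 49.5 FPKM against 39.9 to 40.5 FPKM, a gap of 0.932 of the group's range and past Dixon's 95% limit for 4 samples. 20 groups were checked in this way, and chance flags about 1 in 20.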

How the results depend on the processing

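None of the 10 lipogenesis genes was called in any of the 5 comparisons that could be fitted under the 11 alternatives that kept all libraries. Of all genes, those alternatives called 0.232% to 7.54% with the sexes averaged, 0% to 3.43% in females and 0% to 5.29% in males. They called 0% to 1.66% for the interaction and 0.00681% to 3.14% for sex. In females and for sex, none of the 10 was called when any single library was left out. Leaving out a WT female, which keeps at least 2 libraries per group, called 0% to 0.0545% of all genes in females and 0.00681% for sex. The fits without WT male 1 or KO male 2, which moved *Elovl6* and *Acacb* as given above, leave 1 library in a group. The calls in the wider lists, 3 in all, were 0 with no variance trend, 0 with array weights, 5 in the plain linear model (unadjusted p under 0.01), 8 with adipocyte marker centring and 0 to 6 when single libraries were left out. Of all genes with the sexes averaged, 0.232% were called with no variance trend and 0.375% with array weights, against 3.6% in the results above. The plain linear model called 7.54% of all genes and adipocyte marker centring 5.66%. The median of the 10 genes was 0.45 with adipocyte marker centring and ran from -0.0875 to 0.43 over the libraries left out.

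Some estimates turned sign in an alternative. Centring on the median or on adipocyte markers takes 1 value per library from every gene, so it moves all estimates of a comparison alike. With adipocyte markers and the sexes averaged, the median of all genes went from -0.07 to 0.24. The cause of the other turns was not tested. With the sexes averaged the estimates that turned were *Scd1* under quantile normalization (-0.058) and, under adipocyte marker centring, *Acacb* (0.13), *Pgls* (0.060), *Lpin1* (0.058), *Akt2* (0.18) and *Lpcat3* (0.11). In females, *Scd2* gave 0.053 with median centring, 0.039 with array weights and 0.056 with adipocyte marker centring, and *Srebf1* gave 0.093, 0.074 and 0.096. Over the libraries left out, the averaged estimate ran from -0.18 to 0.51 for *Scd1*, from -0.30 to 0.35 for *Scd2*, from -0.11 to 0.20 for *Mlxipl* and from -0.062 to 0.28 for *Thrsp*, and that in females from -0.018 to 0.36 for *Scd1*, from -0.34 to 0.22 for *Scd2* and from -0.22 to 0.23 for *Srebf1*. The number of genes called in the whole table moved from 529 to 222 with median centring, to 34 with no variance trend and to 55 with array weights. With 2 or 3 libraries per group, the intervals above leave changes of more than 1.5-fold open for most of these genes. No paired analysis was possible because the labels give each animal its own number and no number is shared between groups.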
